A study of Mus musculus with 4 samples.

Results

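The casein kinase 1 and casein kinase 2 genes of the mouse were followed from epiblast stem cells (EpiSCs) to cells converted from them with small molecules. The members were all array probes whose annotated symbol was one of Csnk1a1, Csnk1d, Csnk1e, Csnk1g1, Csnk1g2, Csnk1g3, Csnk2a1 and Csnk2a2. These are 8 genes among 16593 with a symbol, read by 18 of 25697 probes. The regulatory subunit gene Csnk2b was not analysed here. The genes were chosen by their intensities in this same comparison, parnate/mAMFGi against EpiSC, so their levels and differences are given as a description, without a test.

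Casein kinases are serine and threonine kinases named after the milk protein that was their first laboratory substrate. Casein kinase 1 (CK1) enzymes act as monomers and prefer sites next to a residue that is already phosphorylated. In the Wnt pathway CK1 alpha primes beta-catenin for destruction, CK1 delta and epsilon phosphorylate Dishevelled, and the membrane-bound gamma forms phosphorylate the co-receptor LRP6. CK1 delta and epsilon also phosphorylate the PERIOD proteins and set the pace of the circadian clock. Casein kinase 2 (CK2) is a complex of catalytic alpha or alpha prime subunits, encoded by Csnk2a1 and Csnk2a2, with a regulatory beta subunit, and it phosphorylates many proteins of growing cells.

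Biotin-labelled RNA was read on Illumina bead arrays for the mouse, 2 of EpiSCs and 2 of converted cells. EpiSCs are pluripotent cells that represent the postimplantation epiblast. They were grown in DF12 medium with 20% serum replacement (KSR) and bFGF at 10 ng/ml. The other group is named parnate/mAMFGi in the labels, which also call it converted ES cells. Parnate is tranylcypromine, an inhibitor of the histone demethylase LSD1, and the labels do not spell out mAMFGi. The growth text of the converted group describes ES cell culture in DMEM with 10% fetal bovine serum and LIF at 1000 units/ml. Irradiated mouse embryonic fibroblasts served as feeders for both groups. Conversion, medium and growth factor therefore cannot be told apart. The labels call the arrays of a group biological replicates and do not say whether they came from separate cultures. Errors and p-values therefore measure the spread between these arrays, taken partly from the probe itself and partly pooled over all probes.

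Intensities are the authors' processed values on a linear scale. Median intensities were 50 and 50.3 on the EpiSC arrays and 52 on both parnate/mAMFGi arrays. No value came near 0, so a background remained in every value, and differences of probes near the medians may be understated. Levels of different probes were not compared, since probes differ in how brightly they bind. Marker genes matched the labels in part. The ES cell genes Zfp42, Esrrb, Klf4, Dppa3 and Tbx3 summed to intensities of 291.2 and 318 in EpiSCs and 7005 and 7232 in parnate/mAMFGi cells. The core factor gene Pou5f1 read 10271 ± 909 and 10199 ± 766 (mean ± SD, n = 2 arrays per group). Of the other shared pluripotency genes Sox2 rose from 226.4 ± 3.54 to 719.7 ± 106 (log2 difference 1.66, limma adjusted p = 1.28e-08), and Nanog, with a log2 difference of −0.24, did not pass. Of the EpiSC markers Fgf5 fell, while Otx2 and Pou3f1 rose. Of 12 fibroblast feeder markers, 9 rose, 1 (Thy1) fell and 2 did not pass the test in limma. Their summed intensity was 1677 and 1896 in EpiSCs and 4737 and 5156 in parnate/mAMFGi cells, and no marker read 0.

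Most casein kinase genes read lower in the converted cells. Taken by its brightest probe, Csnk1e was lower by a factor of 4.37, Csnk1g1 by 2.59, Csnk2a2 by 2.22 and Csnk1d by 1.89. Csnk1g2 and Csnk1g3 were lower by factors of 1.55 and 1.54. Csnk1a1, which read at the array medians, and Csnk2a1 differed little. The median log2 difference (parnate/mAMFGi minus EpiSC) of the 8 genes was −0.77, against 0.02 over all 16593 genes. In the limma fit over all probes, with Benjamini-Hochberg adjustment and a threshold of 0.05, 6 of the 8 passed, all lower. Of all genes 21.2% passed as lower, 20.2% as higher and 41.5% in either direction. The choice of the genes rested on this comparison, so nothing is read from that count. Of the 18 probes, 10 passed as lower and 2 as higher, against 18.7% and 19.7% of all probes (38.4% in either direction). Without either parnate/mAMFGi array, probes 3 and 4 of Csnk1d did not pass, and probe 3 also did not without EpiSC replicate 2 or with an intensity trend in eBayes. The arrays of the groups did not overlap for 6 genes on the lower side and 1 on the higher side, where the shares over all genes were 30.7% and 35.5%. They did not overlap for 13 probes on the lower side and 3 on the higher side, where the shares over all probes were 28.7% and 35.4%. In bulk RNA, fewer cells of a type and less RNA per cell cannot be told apart. Feeder markers moved with the same contrast, and their part in the casein kinase differences was not tested.

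**Figure D1:**
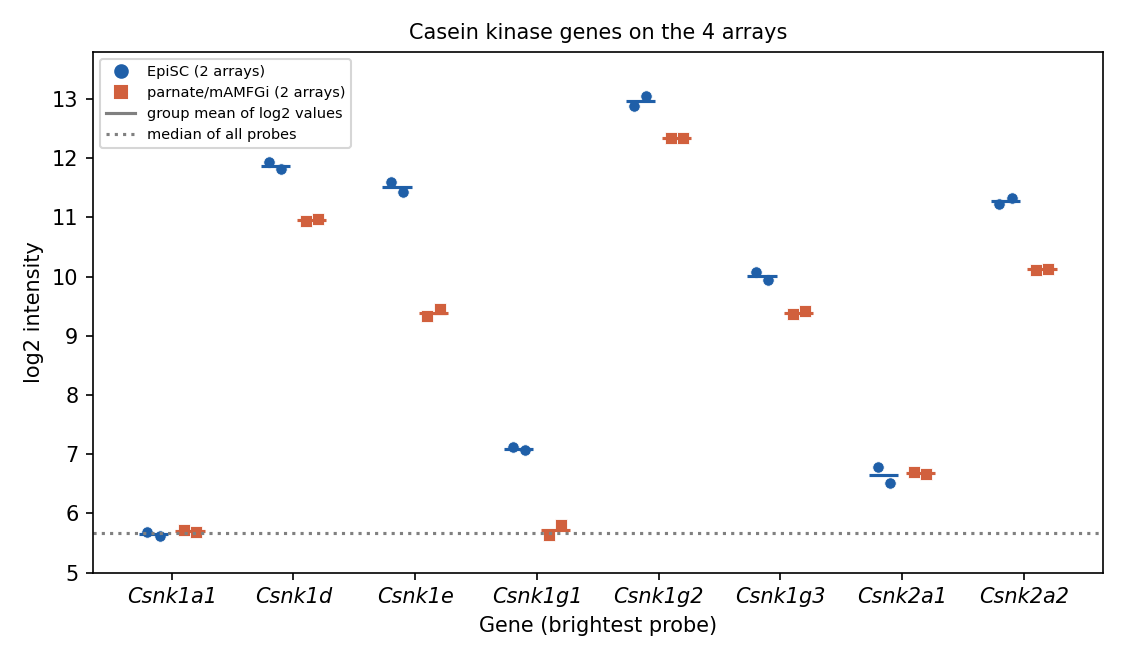
Log2 intensity (y axis) of the brightest probe of each casein kinase gene (x axis) on the 2 EpiSC and 2 parnate/mAMFGi arrays, with group means as short lines and the median of all probes as a dotted line. For 6 genes both parnate/mAMFGi arrays lie below both EpiSC arrays, Csnk1a1 lies at the dotted line in both groups, and Csnk2a1 lies above it with overlapping groups.

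Csnk1e, which encodes CK1 epsilon, a kinase of the clock and of Wnt signalling, showed the widest gap. Its brightest probe read 3089 and 2765 in EpiSCs and 641.3 and 697.2 in parnate/mAMFGi cells. Both converted arrays stood far below both EpiSC arrays. The log2 difference was −2.13 (SE 0.10). The other probe read 2460 and 2016 in EpiSCs and 459.5 and 478.1 in parnate/mAMFGi cells, with a log2 difference of −2.25 (SE 0.11). The probes of this gene thus gave the same direction and nearly the same size, and no array of one group reached the other on either probe. Among 16585 other genes, the profiles nearest to that of Csnk1e over the 4 arrays were those of Gxylt2, Dusp6 and Kif3c, at distances of 0.04, 0.05 and 0.06 in centred log2 values. In all, 46 genes lay within a distance of 0.2.

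Csnk1d, which encodes CK1 delta, the closest relative of CK1 epsilon, was read by 5 probes that did not agree. The brightest probe read 3894 and 3608 in EpiSCs and 1961 and 2007 in parnate/mAMFGi cells, a log2 difference of −0.92 (SE 0.09). The second read 3506 and 3446 against 1846 and 1736, a log2 difference of −0.96 (SE 0.09). On both of these bright probes the EpiSC arrays stood well above the converted arrays. The third probe read 412.3 and 485.8 in EpiSCs and 358.5 and 366.1 in parnate/mAMFGi cells, a smaller log2 difference of −0.30 (SE 0.10). Probes 4 and 5 pointed the other way. Probe 4 read 251.7 and 256.8 in EpiSCs and 310.8 and 319.1 in parnate/mAMFGi cells, a log2 difference of 0.31 (SE 0.09). Probe 5 read 164 and 147.9 against 220.7 and 206.8, a log2 difference of 0.46 (SE 0.10). The groups did not overlap on any of the 5 probes, 3 of which were lower and 2 higher in parnate/mAMFGi cells. Over all probes the groups did not overlap for 28.7% on the lower side and 35.4% on the higher side. Probes 3 and 4 did not pass in every setting of the fit, as given above. Averaged over all 5 probes, the log2 difference of Csnk1d was −0.28 instead of −0.92. The platform annotation lists the 5 probes under 1 transcript accession, and where they lie on it was not analysed here.

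**Figure D2:**
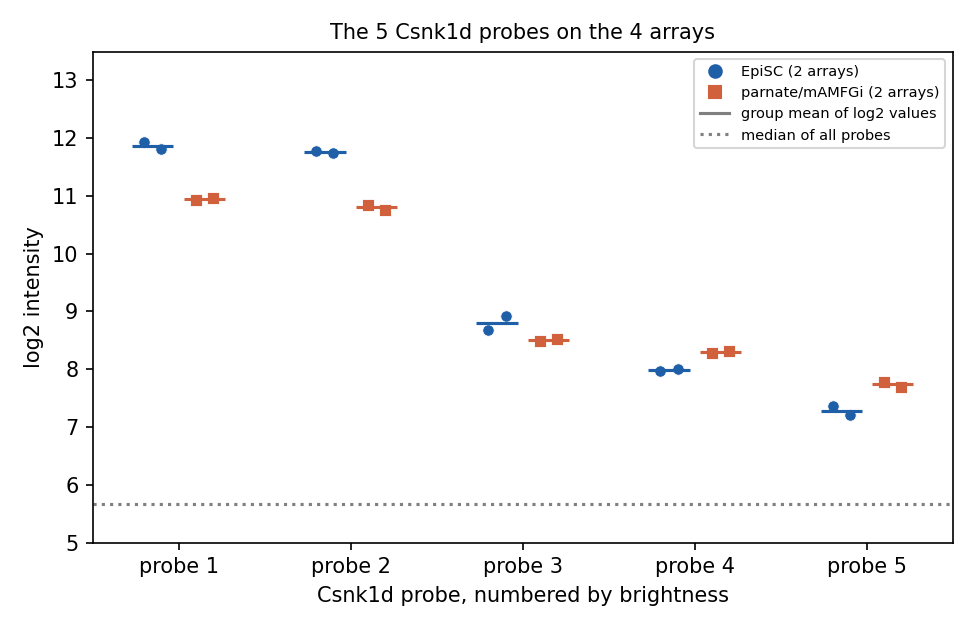
Log2 intensity (y axis) of the 5 Csnk1d probes (x axis, numbered by brightness) on the 2 EpiSC and 2 parnate/mAMFGi arrays, with group means as short lines. Parnate/mAMFGi arrays lie below EpiSC arrays on probes 1 to 3 and above them on probes 4 and 5, and every probe lies above the median of all probes.

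Csnk1a1, the gene of CK1 alpha, had 1 probe, which read 51.6 and 49.1 in EpiSCs and 52.9 and 51.7 in parnate/mAMFGi cells. All 4 values lay at the array medians, and whether the probe read above background was not tested. Its log2 difference was 0.06 (SE 0.09, 95% interval −0.14 to 0.25). The profile was flat, and 6300 of 16585 other genes lay within a distance of 0.2 of it, with Arfgap2, Telo2 and Vmn1r202 nearest (each at 0.01).

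The gamma forms of CK1 are held at the plasma membrane by a lipid anchor, and their 3 genes all read lower by the brightest probe. Csnk1g1 read 138.5 and 134.5 in EpiSCs and 49.5 and 56 in parnate/mAMFGi cells. The converted arrays read at the level of the array medians, so the log2 difference of −1.37 (SE 0.10) may be understated. The other Csnk1g1 probes were dim in both groups, at 49.2 to 63.1 in EpiSCs and 52.3 to 59 in parnate/mAMFGi cells, with log2 differences of −0.16 and 0.12. Averaged over the 3 probes, Csnk1g1 differed by −0.47.

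Csnk1g2 was bright on every array. Its brightest probe read 7571 and 8466 in EpiSCs and 5174 and 5178 in parnate/mAMFGi cells, a log2 difference of −0.63 (SE 0.10). The other probes read 672.7 and 682.6 against 631.4 and 544.2, and 292 and 330.9 against 281.6 and 271.4. Their log2 differences of −0.21 and −0.17 were smaller, and neither passed in the limma fit. The groups did not overlap on either, as on the lower side for 28.7% of all probes. Averaged over the 3 probes the difference was −0.34. Csnk1g3, read by 1 probe, stood at 1083 and 979.7 in EpiSCs and 659.5 and 681.6 in parnate/mAMFGi cells, a log2 difference of −0.62 (SE 0.10).

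The catalytic subunit genes of CK2 behaved differently from each other on these probes. Csnk2a2, the alpha prime gene, read 2381 and 2554 in EpiSCs and 1103 and 1121 in parnate/mAMFGi cells, a log2 difference of −1.15 (SE 0.09). Its other probe read 1497 and 1633 against 723.8 and 780.4, a log2 difference of −1.06 (SE 0.10). Both probes put every converted array at about the same distance below the EpiSC arrays. Csnk2a1, the alpha gene, read 110.6 and 90.9 in EpiSCs and 103.9 and 101.2 in parnate/mAMFGi cells. The converted arrays lay inside the EpiSC range, and the log2 difference was 0.03 (SE 0.11, 95% interval −0.20 to 0.26). Its sign was not stable, at −0.11 without EpiSC replicate 2, 0.17 without EpiSC replicate 1 and −0.02 under median scaling. Csnk2a1 had 1 probe, and RefSeq lists pseudogene copies of it, so this reading of the gene is uncertain.

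**Figure D3:**
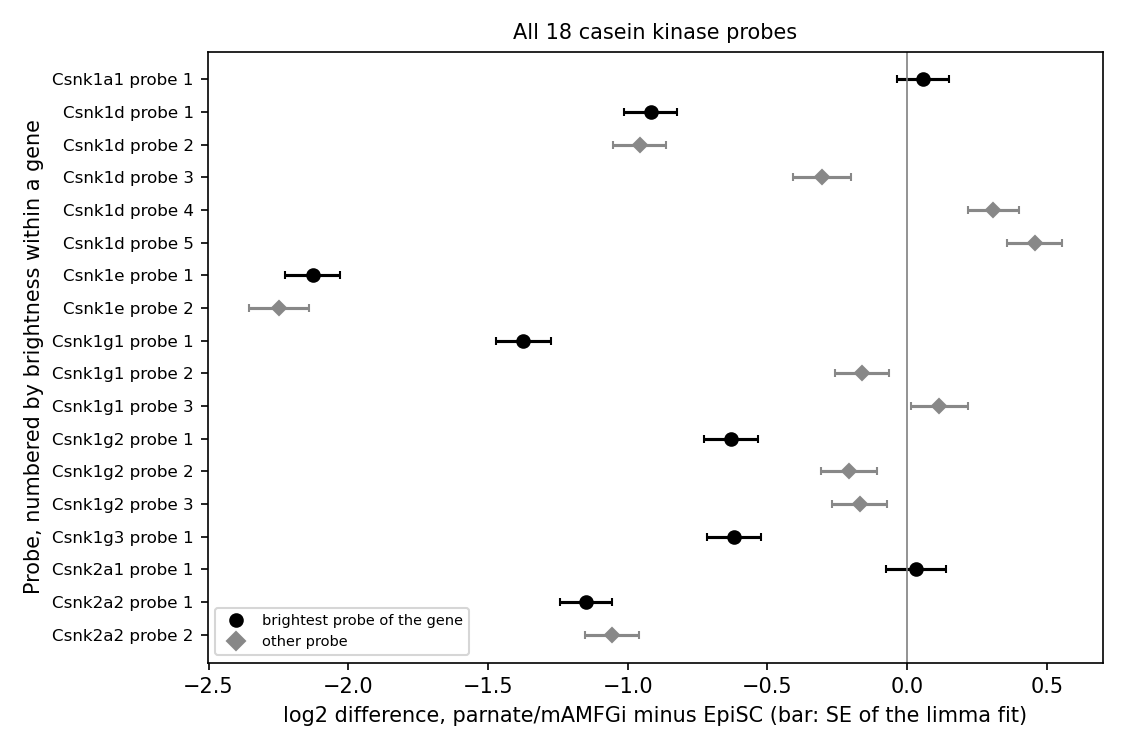
Log2 difference between parnate/mAMFGi and EpiSC arrays (x axis, bars are the SE of the limma fit) of all 18 casein kinase probes (y axis), with the brightest probe of each gene in black. The probes of Csnk1e and of Csnk2a2 lie together, whereas those of Csnk1d run from −0.96 to 0.46.

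Promoter windows of 300 bases, from 250 before to 50 after a transcript start in RefSeq (GRCm38.p6), were analysed for 5 of the 8 genes. These gave 9 windows. No window of Csnk1a1, Csnk1d or Csnk1g3 was analysed here, so the motif counts of the 9 windows leave those genes out. Windows of the CK2 catalytic pair and of Csnk1e are shown, because Csnk2a2 and Csnk1e read lower on every probe and Csnk2a1 did not. Csnk1g2 also read lower on every probe, and its windows are not shown. The windows shown run 5′ to 3′ on the transcript strand, and capitals mark the motifs searched on both strands. The Csnk1e window is the first of 4 listed starts, at chr15:79442094-79442393 on the minus strand. That of Csnk2a2 is chr8:95488771-95489070 on the minus strand, and that of Csnk2a1 is chr2:152226590-152226889 on the plus strand.
Csnk1e: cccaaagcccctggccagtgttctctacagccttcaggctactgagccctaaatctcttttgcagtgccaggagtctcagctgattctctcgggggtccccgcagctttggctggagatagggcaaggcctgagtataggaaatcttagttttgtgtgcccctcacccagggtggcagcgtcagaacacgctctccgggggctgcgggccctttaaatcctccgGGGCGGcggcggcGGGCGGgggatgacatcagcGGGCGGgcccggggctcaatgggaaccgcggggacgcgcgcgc
Csnk2a2: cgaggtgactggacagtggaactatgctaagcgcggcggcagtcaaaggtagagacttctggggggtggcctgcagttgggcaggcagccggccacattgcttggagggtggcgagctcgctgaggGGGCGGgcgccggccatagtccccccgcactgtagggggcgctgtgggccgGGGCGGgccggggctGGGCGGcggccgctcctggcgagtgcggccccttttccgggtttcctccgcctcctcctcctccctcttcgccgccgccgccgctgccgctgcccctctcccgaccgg
Csnk2a1: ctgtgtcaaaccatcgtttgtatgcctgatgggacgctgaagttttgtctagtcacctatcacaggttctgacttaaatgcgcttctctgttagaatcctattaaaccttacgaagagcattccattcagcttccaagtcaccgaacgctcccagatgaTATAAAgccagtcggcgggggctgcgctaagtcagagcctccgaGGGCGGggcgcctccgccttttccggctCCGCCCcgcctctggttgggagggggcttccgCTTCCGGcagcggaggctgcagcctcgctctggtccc
The motifs were the GC box (GGGCGG), the canonical E-box (CACGTG), the cyclic AMP response element (TGACGTCA), the CCAAT box (CCAAT), an ETS core (CCGGAAG) and the TATA box (TATAAA). The Csnk1e and Csnk2a2 windows shown each held 3 GC boxes and none of the other motifs. The count for Csnk1e depends on the start, since its other windows held 5, 6 and 6 GC boxes and 39, 54 and 52 CpG pairs. Csnk2a1 held 2 GC boxes, 1 ETS core and 1 TATA box. A GC box was present in 8 of the 9 windows, some of which overlap, and in 35.7% of 32841 RefSeq promoter windows. The E-box, through which the clock factors act, was in none of the 9 and in 7.15% of all windows. An ETS core was in 8.86%, a TATA box in 13.6%, a CCAAT box in 37.4% and the cyclic AMP element in 1.79% of all windows. CpG pairs numbered 21 in the Csnk1e window shown, 30 in Csnk2a2 and 20 in Csnk2a1, against a median of 7. The Csnk1g2 windows, not shown, held 50 and 5 CpG pairs, and the one with 5 had no GC box. These matches describe the letters of the windows.

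The 8 genes lie on 7 chromosomes, with Csnk1a1 and Csnk1g3 both on chromosome 18. Of the 3 protein-coding genes on each side of a member, 43 of 48 could be analysed. Of these, 15 fell, 6 rose and 22 did not pass in limma, where the shares over all genes were 21.2% lower and 20.2% higher. The median log2 difference of the neighbours was −0.04, against 0.02 over all genes. Around Csnk1e on chromosome 15, 4 of 6 neighbours fell and the others did not pass. Tmem184b fell from 3994 to 1310 (log2 difference −1.60, SE 0.10, limma adjusted p = 1.04e-08). Kdelr3, which encodes a receptor that returns proteins to the endoplasmic reticulum, fell from 558.4 to 137.3 (log2 difference −2.01, SE 0.12, limma adjusted p = 4.51e-09). Maff and Kcnj4 had log2 differences of −0.88 and −0.67, and Pla2g6 (−0.14) and Ddx17 (−0.01) did not pass. Around Csnk1d 1 of 6 neighbours, Slc16a3, rose (0.52) and the others did not pass. These neighbours were named after their values were seen.

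Genes that work with the casein kinases went both ways. Over 8 lists of partners, substrates and relatives, 15 of 57 genes analysed fell and 14 rose, with a median log2 difference of −0.02. Among all 16593 genes 21.2% passed as lower and 20.2% as higher, with a median of 0.02. These shares over all genes are to be read beside each list count below. Without parnate/mAMFGi replicate 1, 19 of the 57 passed in place of 29. The PERIOD genes, whose proteins are substrates of CK1 delta and epsilon, fell. Per1 read 841.6 and 645 in EpiSCs and 184.2 and 166.1 in parnate/mAMFGi cells (log2 difference −2.07, SE 0.12, limma adjusted p = 3.77e-09). Per2 read 134.9 and 122.9 against 56 and 63.1 (log2 difference −1.12, SE 0.10, limma adjusted p = 3.90e-07). No converted array reached an EpiSC array on either of these probes. The other Per2 probes had log2 differences of −0.64 and −0.06, and the mean over its probes was −0.61. The other Per1 probe stood at −1.35. Bhlhe40, a repressor in the clock loop, fell from 687 ± 137 to 148.5 ± 2.33 (log2 difference −2.20, SE 0.12, limma adjusted p = 2.03e-09). Of 12 clock genes analysed, 5 fell, 2 rose and 5 did not pass. The falls were Per1, Per2, Bhlhe40, Dbp (−0.83) and Per3 (−0.34), the last near the array medians. The Per3 call was lost without EpiSC replicate 1 (limma adjusted p = 0.083) or parnate/mAMFGi replicate 1 (0.163). The rises were Clock (0.95) and Arntl (0.38), which encode the activators of the loop. Dbp, Per3, Clock and Arntl were named after their values were seen. The Arntl call was lost without EpiSC replicate 2 (limma adjusted p = 0.0862), parnate/mAMFGi replicate 1 (0.0724) or parnate/mAMFGi replicate 2 (0.107).

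Proteins of the FAM83 family anchor CK1 enzymes at particular places in the cell. Of 6 FAM83 genes analysed, 3 fell, 1 rose and 2 did not pass. Fam83g, known as an anchor of CK1 alpha, read 275.3 and 263.2 in EpiSCs and 71.1 and 70.2 in parnate/mAMFGi cells (log2 difference −1.93, SE 0.09, limma adjusted p = 5.11e-10). Fam83f fell by 0.68 on the log2 scale, to intensities below the array medians. Fam83h, which places CK1 at keratin filaments, rose from 91.1 ± 1.98 to 225 ± 6.72 (log2 difference 1.30, SE 0.09, limma adjusted p = 3.19e-08). Fam83e, named after its values were seen, fell by 0.40 and did not pass without EpiSC replicate 2 (limma adjusted p = 0.219), parnate/mAMFGi replicate 1 (0.265) or parnate/mAMFGi replicate 2 (0.060).

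Of 4 other CK1-group genes analysed, 2 fell and 1 rose. Vrk3 (−0.78) and Vrk2 (−0.55) fell and Vrk1 (0.78) rose, each a gene of the vaccinia-related kinase family. The other Vrk1 probes stood at 0.44 and −0.11, and the mean of its probes was 0.37. Of 3 genes of the secretory-pathway FAM20 family, in which Fam20c phosphorylates secreted casein, 2 rose. Fam20b rose by 1.02 and Fam20a by 0.49 on the log2 scale, and the Fam20a call was lost when parnate/mAMFGi replicate 1 was left out (limma adjusted p = 0.0855). The mean of the Fam20a probes was 0.30. Fam20c stood at 0.04 and did not pass.

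Most Wnt transduction genes did not pass the test, and of all genes 41.5% passed in either direction. Of 14 analysed, 2 rose, 2 fell and 10 did not pass, with a median log2 difference of −0.01. Ddx3x, an RNA helicase that stimulates CK1 epsilon, read 1098 and 913.1 in EpiSCs and 1567 and 1977 in parnate/mAMFGi cells (log2 difference 0.81, SE 0.12, limma adjusted p = 6.80e-05). Btrc, the F-box protein that recognises phosphorylated beta-catenin, had a log2 difference of −0.68 on its brightest probe, while its dim probes stood at −0.03 and 0.00. Dvl1, a Dishevelled gene, had a log2 difference of −0.43, and its call was lost without EpiSC replicate 2 (limma adjusted p = 0.0898), parnate/mAMFGi replicate 1 (0.0545) or parnate/mAMFGi replicate 2 (0.131). Apc, the remaining rise and named after its values were seen, stood at 0.43 and did not pass without EpiSC replicate 2 (limma adjusted p = 0.216), parnate/mAMFGi replicate 1 (0.0906) or parnate/mAMFGi replicate 2 (0.21). The beta-catenin gene Ctnnb1 read 7184 ± 933 and 7233 ± 25.7 (log2 difference 0.02, SE 0.10).

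Of 5 Hedgehog genes analysed, Smo fell and Sufu and Ptch1 rose. Smo, a membrane protein whose tail CK1 phosphorylates, had a log2 difference of −0.99. Sufu (0.34, or 0.23 as the mean of its probes) and Ptch1 (0.29) read near the array medians. Without parnate/mAMFGi replicate 1 neither rise passed (limma adjusted p = 0.107 and 0.186), and Ptch1 also did not pass without EpiSC replicate 1 (0.073) or parnate/mAMFGi replicate 2 (0.0749). Of 9 CK2 partners and substrates analysed, 4 rose, 2 fell and 3 did not pass. Hsp90aa1, an HSP90 chaperone gene, rose from 510.9 ± 46.1 to 1341 ± 223 (log2 difference 1.38, SE 0.12, limma adjusted p = 2.06e-07), although its dim probe stood at −0.04. Ncl, the nucleolin gene, rose by 1.37, and the translation factor gene Eif5 by 0.78 to 1.49 on its 3 probes. The remaining rise was Nolc1 (0.48) and the falls were Npm1 (−0.33) and Top2a (−0.42), named after their values were seen. The Npm1 call was lost without parnate/mAMFGi replicate 1 (limma adjusted p = 0.267). The Top2a call was lost without EpiSC replicate 1 (limma adjusted p = 0.0783), parnate/mAMFGi replicate 1 (0.0709) or parnate/mAMFGi replicate 2 (0.0937), and that of Nolc1 without parnate/mAMFGi replicate 2 (0.0848). Of 4 milk casein genes analysed, none passed in limma and every 95% interval of the difference included 0. All read between 33.9 and 41.9, below the array medians.

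**Figure D4:**
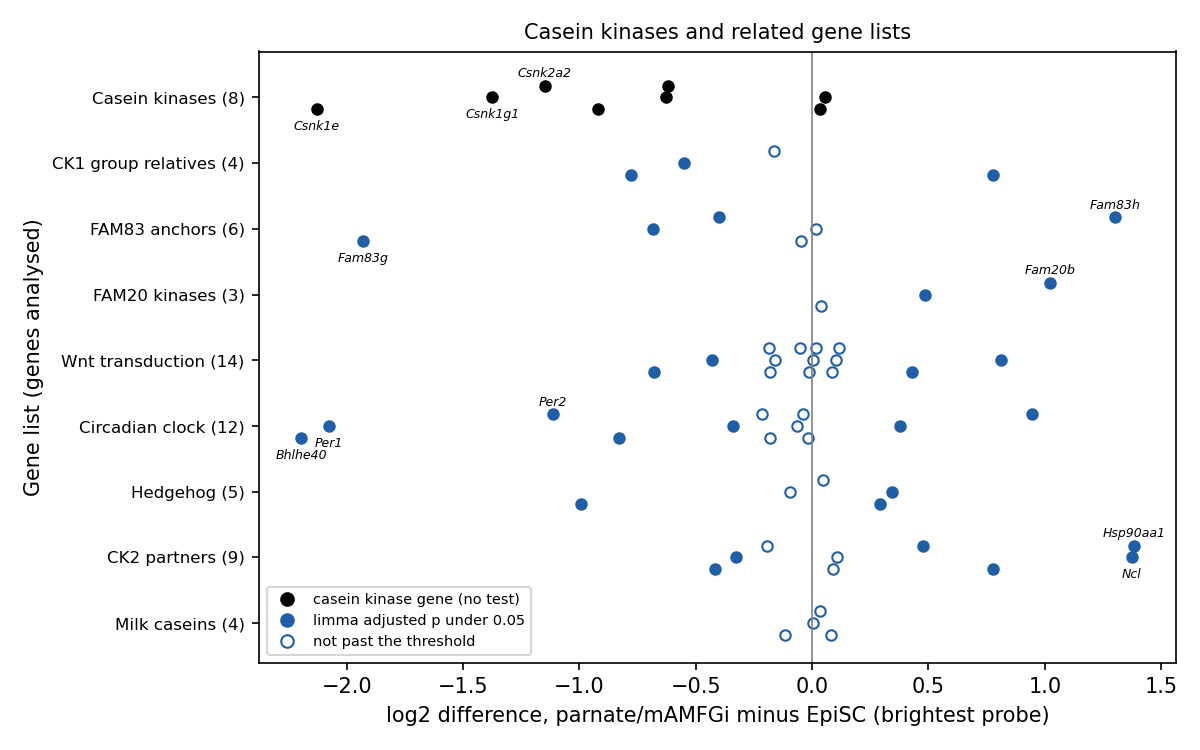
Log2 difference between parnate/mAMFGi and EpiSC arrays (x axis, brightest probe of each gene) for the casein kinase genes in black and 8 related gene lists in blue (y axis, with the number of genes analysed). Filled blue points passed an adjusted p of 0.05 in limma. Per1, Per2, Bhlhe40 and Fam83g lie to the left with Csnk1e, while Fam83h, Fam20b, Hsp90aa1 and Ncl lie to the right, and the milk caseins lie at 0.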

How the data were processed

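Expression was measured on 4 Illumina bead arrays, and the deposited intensities, processed by the authors, were used on their linear scale with 1 value per probe. How they corrected background or normalized between arrays is not given in the sources used here. Medians of the arrays were nearly equal. A further deposited table has 8 value columns (4 signals, 4 detection values) whose names match no label, and these were not used, so no probe was called detected or not.

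Values were log2-transformed without pseudocount, normalization or filter and fitted over all 25697 probes with limma 3.58.1 in R 4.3.3 (lmFit, eBayes, 2 residual and 11.8 prior degrees of freedom), with Benjamini-Hochberg adjustment and a threshold of 0.05. The number of arrays limits the precision. The fit was run on simulated data with independent normal errors, whose spread was drawn from its own model. That run checks the code and cannot test whether these assumptions hold for the arrays. Symbols came from the platform annotation (23978 probes with 1 symbol, 0 with several, 1719 with none). Of these, 23962 were found by gene identifier in RefSeq GRCm38.p6, with 0 differing. The brightest probe by mean log2 represented a gene.

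The members, gene lists and tests were chosen with earlier results of these data known. The rule for named genes took the 8 members and up to 3 called genes of each list with the largest absolute difference. Where none was called, it took the brightest, here Csn1s2b. It also took the 3 genes nearest in profile to the members with the lowest and highest difference. Other genes are named outside this rule, among them Ctnnb1, Fam20c, Csnka2ip, the markers, the neighbours and those stated as named after their values were seen. Listed genes without a probe under that symbol (among them Csnk2b, Ttbk1, Fam83c, Fam83d, Axin1, Gli2, Kif7, Hsp90ab1, Ssrp1, Supt16 and Csn1s1) were not analysed here. Alternatives were quantile normalization, normexp correction with offset 50 before it, median scaling, cyclic loess, brighter probes only, eBayes with trend, the replicate number as a block, each array left out, and the mean of a gene's probes.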

Additional observations from a re-analysis of the deposited data

How the results depend on the processing

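Over the 12 alternatives run, 202 of 205 recomputed differences of the casein kinase probes and genes kept their sign, and the other 3 belonged to Csnk2a1, which lay between −0.11 and 0.17. Keeping only brighter probes left out Csnk1a1. Csnk1e ranged from −2.21 to −2.02 and Csnk2a2 from −1.20 to −1.05. The mean over a gene's probes moved Csnk1d to −0.28, Csnk1g1 to −0.47 and Csnk1g2 to −0.34. With the replicate number as a block, 9912 probes passed in place of 9870, and 29 pathway genes as before. Deviations of arrays with the same number correlated at −0.06, so the numbers do not show a pairing. Leaving out each array gave 7490 to 9625 probes and 19 to 27 pathway genes. Under median scaling 54.9% of called probes were lower, against 48.6%. The Ptch1 call was lost after quantile normalization (limma adjusted p = 0.0512), normexp (0.0773) and median scaling (0.0575), and the Dvl1 call for the mean of its probes (0.13). Background left in the values limits what dim probes such as those of Csnk1a1 can show.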

Other observations

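Csnka2ip, which encodes a protein that binds the CK2 alpha prime subunit and is known from testis, was not among the members. Its probes read 37.6 and 36.8, and 35.5 and 31.8, in EpiSCs, and 37.2 and 37.6, and 37.8 and 37.6, in parnate/mAMFGi cells. All 8 values lay below the array medians, and the log2 differences were 0.01 (SE 0.09) and 0.17 (SE 0.10). Around Csnk1g3, 4 of 6 neighbouring genes passed as lower in limma, with log2 differences of −1.67 for Ppic, −0.56 for Cep120, −1.41 for Zfp608 and −0.75 for Gramd3, while Prdm6 (−0.04) and Aldh7a1 (0.07) did not pass. Around Csnk2a2, Usb1 (−1.36) and Cfap20 (−0.93) fell and Ccdc113 (0.78) rose among 5 neighbours analysed. Around Csnk2a1, Srxn1 (1.70) and Trib3 (1.37) rose and Tbc1d20 (−0.43) fell among 5 analysed. Near Csnk1g1, Pclaf (−1.46) and Snx1 (−0.56) fell, and Zfp609, Trip4 and Snx22 did not pass. Near Csnk1g2, Mknk2 (−1.06) and Mob3a (−0.54) fell, Scamp4 (1.25) rose and Abhd17a did not pass. Near Csnk1a1, Pcyox1l (0.75) rose and the others did not pass. Shares over all genes were 21.2% lower and 20.2% higher. These neighbours were named after their values were seen.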
